A study of Homo sapiens with 24 samples.

Results

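The 9 genes described here encode the precursor B cell receptor, proteins that pass on or dampen its signal, and a stem and progenitor cell antigen: VPREB1, VPREB3, CD79A, CD79B, BLNK, BANK1, CD72, CD22 and CD34. They were chosen by name with earlier results of these data known, so counts over them describe them and do not test the set. The level of each was read from its transcript cluster, a set of probes taken as 1 gene. That cluster carries its symbol alone in the array annotation. Where a gene had several such clusters, that of highest mean level was used, which concerned 1 of the 9 genes, CD22. All 9 were measured, of 14232 genes in all.

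RNA was taken from MUTZ-5 and MHH-CALL4, established lines of human acute lymphoblastic leukemia of the B cell precursor kind. The study compared these cells with and without JQ1, a compound that blocks the acetyl-lysine pocket of the BET bromodomain proteins and so releases them from chromatin. The 4 groups were MUTZ-5 with 500 nM JQ1, MUTZ-5 with the solvent DMSO, MHH-CALL4 with 500 nM JQ1 and MHH-CALL4 with DMSO, each for 8 hours. Both lines were grown in RPMI medium with fetal bovine serum, and each group had 3 samples on 1 Affymetrix array each. The labels do not say whether these samples were separate cultures, so p-values measure only the spread between them, which may be technical. A difference between the lines is a difference between these 2 lines alone. In bulk RNA, fewer cells of a type and less RNA per cell cannot be told apart.

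A developing B cell assembles its heavy chain before its light chain and tests it with a surrogate light chain, of which the VPREB1 protein is a part. This precursor receptor signals through CD79A and CD79B, whose cytoplasmic tails are phosphorylated by kinases of the SRC family and bound by SYK. The adaptor BLNK then brings BTK and phospholipase C gamma 2 to the complex, and BANK1 is a scaffold protein of the same pathway. CD72 and CD22 are surface coreceptors that recruit the phosphatase PTPN6 (SHP-1) and dampen the signal. CD34 marks stem and progenitor cells and is carried by many precursor B cell leukemias.

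Promoter sequences are shown for the 4 genes on which the results turn: VPREB1 and CD72, which fell in both lines, VPREB3, which fell in MUTZ-5 and had no called change in MHH-CALL4, and BLNK, the 1 gene of the 9 that rose. Each runs 5′ to 3′ on the gene's strand, as RefSeq gives it on GRCh38.p14, and spans 250 bases before to 50 bases after the start of the gene. VPREB1 lies at chr22:22244536-22244835 on the plus strand, VPREB3 at chr22:23754376-23754675 on the minus strand, CD72 at chr9:35618364-35618663 on the minus strand and BLNK at chr10:96271520-96271819 on the minus strand. Capitals mark matches, on either strand, to 4 motifs of B lineage factors: the octamer ATTTGCAT bound by POU2 factors, the EBF1 core CCCNNGGG, the E box CAGNTG bound by TCF3 and its relatives, and the Ikaros core TGGGAA.
VPREB1: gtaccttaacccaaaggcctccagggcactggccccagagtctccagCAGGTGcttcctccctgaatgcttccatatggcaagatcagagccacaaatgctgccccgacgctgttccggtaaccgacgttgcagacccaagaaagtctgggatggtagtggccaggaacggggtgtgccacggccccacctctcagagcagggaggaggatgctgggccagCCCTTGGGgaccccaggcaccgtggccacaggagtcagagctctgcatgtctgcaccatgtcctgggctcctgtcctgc
VPREB3: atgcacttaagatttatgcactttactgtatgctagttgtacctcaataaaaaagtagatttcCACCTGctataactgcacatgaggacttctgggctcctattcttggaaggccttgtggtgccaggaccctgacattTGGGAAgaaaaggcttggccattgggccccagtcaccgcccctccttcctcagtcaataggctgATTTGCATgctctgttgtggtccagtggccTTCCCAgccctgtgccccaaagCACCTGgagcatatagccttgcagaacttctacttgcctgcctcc
CD72: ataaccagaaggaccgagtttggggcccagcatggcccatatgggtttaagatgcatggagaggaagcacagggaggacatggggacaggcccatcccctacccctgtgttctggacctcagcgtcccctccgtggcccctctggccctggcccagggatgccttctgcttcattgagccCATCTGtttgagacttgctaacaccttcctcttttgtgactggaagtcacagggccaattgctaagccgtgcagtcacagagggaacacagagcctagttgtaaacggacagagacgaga
BLNK: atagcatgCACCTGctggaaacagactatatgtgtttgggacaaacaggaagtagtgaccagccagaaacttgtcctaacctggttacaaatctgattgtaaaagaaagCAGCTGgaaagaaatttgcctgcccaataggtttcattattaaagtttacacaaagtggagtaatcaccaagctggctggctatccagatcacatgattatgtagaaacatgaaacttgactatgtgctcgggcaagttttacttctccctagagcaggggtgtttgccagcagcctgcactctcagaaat
The VPREB1 promoter held an EBF1 core beginning 29 bases before the start, and an E box. The VPREB3 promoter held an octamer beginning 47 bases before the start, with 2 E boxes and 2 Ikaros cores, the CD72 promoter held 1 E box, and the BLNK promoter held 2 E boxes. Of the 35116 promoters of the same length in the table, 1.77% held the octamer, 19.1% the EBF1 core, 49.9% the E box and 24% the Ikaros core, and no 2 matches in these 4 promoters overlapped. The letters describe the sequence and do not show that a factor binds there. The table held a promoter for 8 of the 9 genes, and the one without was CD79B.

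Values are log2 levels made by RMA, a method that corrects background, normalizes arrays to each other and summarises probes, so a difference of 1 is a 2-fold difference. Levels of different genes come from different probes and are not compared with each other. Array medians over the 14232 genes lay between 8.46 and 8.57. Of 11 markers of B lineage identity, 9 were measured, 3 of which (CD79A, CD22 and VPREB1) are also among the 9 genes, and 8 of them lay at or above the median of all genes in every group. Their mean level per array was at least 11.55 in MUTZ-5 with JQ1, 11.8 in MUTZ-5 with DMSO, 11.68 in MHH-CALL4 with JQ1 and 11.97 in MHH-CALL4 with DMSO. The means of the marker lists of T and NK, myeloid, erythroid and megakaryocytic, and stromal and endothelial cells lay between 6.63 and 8.21 in every array. Single markers lay higher. In MHH-CALL4 with DMSO the mean was 10.51 for MPO, 10.47 for NKG7 and 9.855 for PDGFRB. At or above the median there were 2 of 12 T and NK and 2 of 9 myeloid markers. So were 2 of 6 erythroid and megakaryocytic and 1 of 8 stromal and endothelial markers. RMA values have no true 0 and the files give no detection calls, so none of these markers can be called absent. A reference response to JQ1 was present in both lines: HEXIM1, a standard marker of BET inhibition, rose by 1.51 in MUTZ-5 and by 1.76 in MHH-CALL4, and MYC fell by 1.32 in MUTZ-5 and fell by 2.05 in MHH-CALL4.

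A gene was called where its Benjamini-Hochberg adjusted p from limma, over all 14232 genes, was under 0.05. In MUTZ-5, JQ1 lowered 8 of the 9 genes and raised 1, BLNK, against backgrounds of 13% of all genes called lower and 9.06% called higher. In MHH-CALL4, JQ1 lowered 5 of the 9 (VPREB1, CD79A, BANK1, CD72 and CD22) and raised none, against 17.5% of all genes called lower and 11% called higher. Those 5 were lower in both lines, as were 10.6% of all genes tested. The median effect of the 9 genes was -0.69 in MUTZ-5 and -0.52 in MHH-CALL4, against medians over all genes of 0.008 in MUTZ-5 and 0.007 in MHH-CALL4. Because the 9 genes were chosen with earlier results of these data known, these counts and medians do not test the set. Of all calls, 58.9% in MUTZ-5 and 61.5% in MHH-CALL4 were lower, and these shares became 48.5% in MUTZ-5 and 51.5% in MHH-CALL4 after centring each array on its median. No called member changed direction under that centring or under cyclic loess, another normalization between arrays. JQ1 arrays lay below all DMSO arrays of their line for 8 of the 9 genes in MUTZ-5 (18.7% of all genes) and 6 in MHH-CALL4 (24.1%), and above them for BLNK in MUTZ-5 (13.8% of all genes) and in MHH-CALL4 (19.7%). Falls of at least 2-fold were called for VPREB1, VPREB3 and CD72 in MUTZ-5, where 1.22% of all genes passed that rule, and for VPREB1, BANK1 and CD72 in MHH-CALL4, where 1.59% did. Of these 6 falls, that of VPREB1 in MUTZ-5 and that of CD72 in MHH-CALL4 stayed at 2-fold or more under every alternative run. The other 4 remained called but fell short of 2-fold under at least 1 alternative, with smallest differences of -0.85 for VPREB3 in MUTZ-5 (without MUTZ-5 JQ1 replicate 1), -0.98 for CD72 in MUTZ-5 and -0.95 for VPREB1 in MHH-CALL4 (both over extended probe sets), and -0.92 for BANK1 in MHH-CALL4 (cyclic loess).

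**Figure D1:**
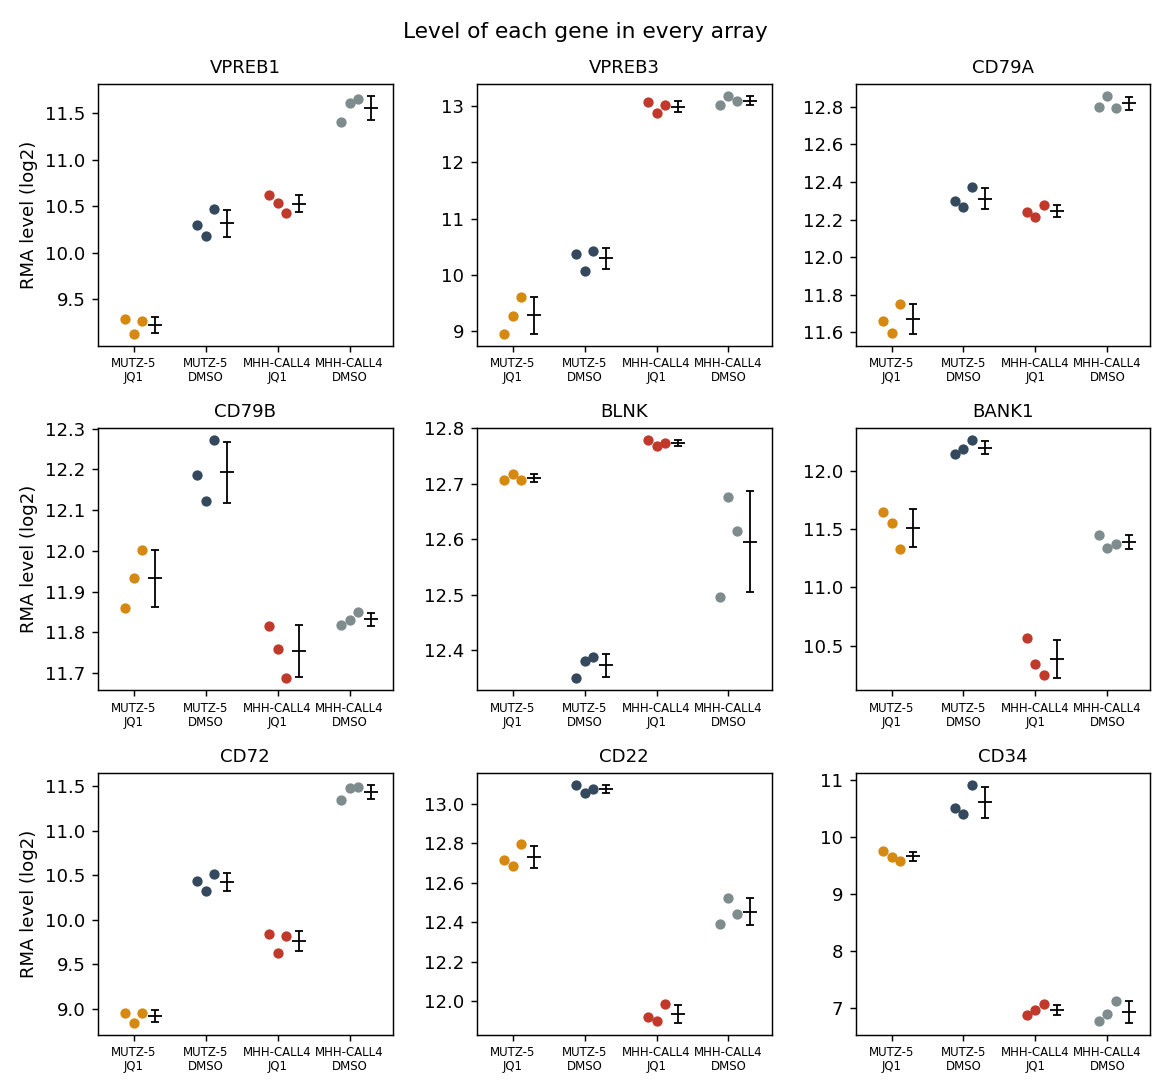
Log2 RMA level (vertical axis) of each of the 9 genes in the 12 arrays, with 3 arrays per group as points and the group mean with its SD as a bar, and a vertical axis of its own for each gene. JQ1 arrays lie below the DMSO arrays of their line for 8 of the 9 genes in MUTZ-5 and 6 of the 9 in MHH-CALL4, BLNK lies higher with JQ1 in both, and VPREB3 and CD34 overlap between treatments in MHH-CALL4.

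VPREB1 encodes the variable-like part of the surrogate light chain, and JQ1 lowered it in both lines. In MUTZ-5, its level was 9.28, 9.13 and 9.26 with JQ1, against 10.30, 10.18 and 10.47 with DMSO. In MHH-CALL4, it was 10.62, 10.54 and 10.43 with JQ1, against 11.41, 11.61 and 11.65 with DMSO. The 3 JQ1 arrays lay below the 3 DMSO arrays in each line. The difference was -1.09 (SE 0.095, limma adjusted p = 3.0e-06) in MUTZ-5, a 2.13-fold fall, and -1.03 (SE 0.095, adjusted p = 3.6e-06) in MHH-CALL4, a 2.04-fold fall. These effects differed by -0.061, with a 95% confidence interval of -0.35 to 0.23. With DMSO, VPREB1 was 2.37-fold lower in MUTZ-5 than in MHH-CALL4 (adjusted p = 2.9e-07), and the groups ran from low to high as MUTZ-5 with JQ1, MUTZ-5 with DMSO, MHH-CALL4 with JQ1 and MHH-CALL4 with DMSO. The middle groups of that order overlapped and the others did not.

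VPREB3 encodes a relative of VPREB1 that associates with newly made heavy chains in precursor B cells, and JQ1 lowered it in MUTZ-5 with no called change in MHH-CALL4. In MUTZ-5, its level was 8.96, 9.28 and 9.62 with JQ1, against 10.38, 10.08 and 10.44 with DMSO, and the groups did not overlap. In MHH-CALL4, it was 13.07, 12.88 and 13.02 with JQ1, against 13.02, 13.18 and 13.08 with DMSO, and the groups overlapped. The MUTZ-5 JQ1 arrays had the widest spread of any group of VPREB3 (SD 0.33). VPREB3 fell by 1.01 in MUTZ-5 (SE 0.14, adjusted p = 1.6e-04), a 2.01-fold fall, while the difference in MHH-CALL4 was -0.11 (95% confidence interval -0.41 to 0.20, adjusted p = 0.629). The difference between the effects was -0.90 (SE 0.20, 95% confidence interval -1.33 to -0.47, adjusted p = 0.0397). That call was lost in 10 of the 12 fits that each left out 1 array, in which the difference lay between -1.07 and -0.74 and the adjusted p between 0.00602 and 0.107. It was kept without MUTZ-5 JQ1 replicate 3 and without MUTZ-5 DMSO replicate 2, and lost when all 22011 core clusters were tested (adjusted p = 0.0975). With DMSO, VPREB3 was 6.96-fold lower in MUTZ-5 than in MHH-CALL4 (difference -2.80, adjusted p = 3.8e-09), and with JQ1 it was also lower (difference -3.70, adjusted p = 3.0e-10). The line accounted for 94.4% of the sum of squares of VPREB3 over the 12 arrays, and JQ1 for 2.78%.

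CD79A and CD79B form the signalling pair of the receptor, and JQ1 lowered CD79A in both lines. CD79A had levels of 11.66, 11.60 and 11.75 in MUTZ-5 with JQ1, against 12.30, 12.27 and 12.37 with DMSO. In MHH-CALL4 it had 12.24, 12.21 and 12.28 with JQ1, against 12.80, 12.86 and 12.79 with DMSO. The groups of each line did not overlap, and the spread within groups was small beside the effect. CD79A fell by 0.64 in MUTZ-5 (SE 0.068, adjusted p = 1.7e-05), or 1.56-fold, and by 0.57 in MHH-CALL4 (SE 0.068, adjusted p = 3.1e-05), or 1.49-fold. Between the lines the effects differed by -0.068 (95% confidence interval -0.28 to 0.14). As for VPREB1, the level in MHH-CALL4 with JQ1 overlapped that in MUTZ-5 with DMSO.

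CD79B moved less. Its level was 11.860, 11.934 and 12.002 in MUTZ-5 with JQ1, against 12.185, 12.123 and 12.272 with DMSO. MHH-CALL4 had 11.815, 11.760 and 11.687 with JQ1, against 11.818, 11.829 and 11.849 with DMSO. The JQ1 arrays lay below the DMSO arrays in both lines, in MHH-CALL4 by less than the spread of the JQ1 arrays. CD79B fell by 0.26 in MUTZ-5 (95% confidence interval -0.41 to -0.11, adjusted p = 0.0162), or 1.20-fold, and the call was lost when MUTZ-5 was fitted alone (adjusted p = 0.0678), without MUTZ-5 JQ1 replicate 1 (0.0794) and without MUTZ-5 JQ1 replicate 2 (0.056). In MHH-CALL4 the difference was -0.078 (95% confidence interval -0.23 to 0.075, adjusted p = 0.459). The difference between the lines' effects did not pass the test (-0.18, 95% confidence interval -0.40 to 0.032, adjusted p = 0.585). CD79B was 1.28-fold higher in MUTZ-5 than in MHH-CALL4 with DMSO (adjusted p = 0.0017), the opposite direction to CD79A, which was 1.42-fold lower in MUTZ-5 (adjusted p = 7.2e-05).

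BLNK, the adaptor downstream of SYK, was the 1 gene of the 9 called higher with JQ1. In MUTZ-5 its level was 12.71, 12.72 and 12.71 with JQ1, against 12.35, 12.38 and 12.39 with DMSO. In MHH-CALL4 it was 12.78, 12.77 and 12.77 with JQ1, against 12.50, 12.68 and 12.62 with DMSO. The JQ1 arrays lay above the DMSO arrays in both lines, and those of each line lay close together. BLNK rose by 0.34 in MUTZ-5 (SE 0.066, 95% confidence interval 0.20 to 0.48, adjusted p = 0.0021), or 1.26-fold. In MHH-CALL4 the difference was 0.18 (95% confidence interval 0.035 to 0.32), which missed the threshold (adjusted p = 0.0604) and passed it under 5 of 8 other processing settings (adjusted p as low as 0.00595) and without MHH-CALL4 DMSO replicate 2 (adjusted p = 0.0442). With DMSO, BLNK was 1.17-fold lower in MUTZ-5 than in MHH-CALL4 (adjusted p = 0.0252), a call lost without MUTZ-5 DMSO replicate 1 (0.0891), MHH-CALL4 DMSO replicate 2 (0.0952) or MHH-CALL4 DMSO replicate 3 (0.0858). With JQ1, the difference between the lines was -0.063 (adjusted p = 0.669). BLNK shares its locus in RefSeq with ZNF518A, which overlaps it.

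BANK1, the scaffold, fell in both lines. MUTZ-5 cells had 11.64, 11.55 and 11.33 with JQ1, against 12.15, 12.19 and 12.26 with DMSO. Levels in MHH-CALL4 were 10.57, 10.34 and 10.25 with JQ1, against 11.45, 11.34 and 11.37 with DMSO. The groups of each line did not overlap, and MUTZ-5 with JQ1 overlapped MHH-CALL4 with DMSO. BANK1 fell by 0.69 in MUTZ-5 (SE 0.097, adjusted p = 1.8e-04), or 1.61-fold, and the difference in MHH-CALL4 was -1.003 (SE 0.097, adjusted p = 5.5e-06), a 2.004-fold fall. The difference between the effects, 0.31, did not pass the test over all genes (95% confidence interval 0.014 to 0.61, adjusted p = 0.443). BANK1 was 1.76-fold higher in MUTZ-5 than in MHH-CALL4 with DMSO (adjusted p = 2.5e-05).

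CD72 fell in both lines, by more than the other 8 genes over core probe sets. This coreceptor binds semaphorin 4D and recruits PTPN6. In MUTZ-5 its level was 8.95, 8.84 and 8.95 with JQ1, against 10.43, 10.32 and 10.52 with DMSO. In MHH-CALL4 it was 9.84, 9.63 and 9.82 with JQ1, against 11.35, 11.49 and 11.49 with DMSO. The 4 groups were separate from each other, in the order MUTZ-5 with JQ1, MHH-CALL4 with JQ1, MUTZ-5 with DMSO and MHH-CALL4 with DMSO by rising level, so each JQ1 group lay below both DMSO groups. CD72 fell by 1.51 in MUTZ-5 (SE 0.083, adjusted p = 7.2e-08), or 2.84-fold, and by 1.68 in MHH-CALL4 (SE 0.083, adjusted p = 1.6e-08), or 3.20-fold. Among all 14232 genes it ranked 42nd from the lowest effect in MUTZ-5 and 39th in MHH-CALL4. The difference between the effects was 0.17 (95% confidence interval -0.082 to 0.43, adjusted p = 0.702). A cluster annotated to both TESK1, a kinase gene that overlaps CD72 in RefSeq, and CD72 was not used for CD72 because it carries 2 symbols. It had 11.06, 11.01 and 11.12 in MUTZ-5 with JQ1, against 10.75, 10.59 and 10.68 with DMSO, and rose by 0.39 (adjusted p = 0.0022 over all 22011 core clusters). In MHH-CALL4 it had 11.13, 11.20 and 11.28 with JQ1, against 10.64, 10.68 and 10.65 with DMSO, and rose by 0.55 (adjusted p = 1.8e-04). These probes therefore moved the other way from the CD72 cluster in both lines, and which of the 2 genes they measured was not tested. Summarised over the extended set of probes, the fall in MUTZ-5 was smaller, 0.98, and no longer the largest of the 9 genes there, and in MHH-CALL4 it was 1.41. JQ1 accounted for 73.9% of the sum of squares of CD72 over the 12 arrays, the largest share among the 9 genes, and the line for 25.2%.

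CD22, a lectin of the Siglec family that binds sialic acid on neighbouring proteins, fell by less. MUTZ-5 cells had 12.71, 12.69 and 12.80 with JQ1, against 13.10, 13.06 and 13.08 with DMSO. MHH-CALL4 cells had 11.92, 11.90 and 11.99 with JQ1, against 12.39, 12.53 and 12.44 with DMSO. All 4 groups were separate, and both MUTZ-5 groups lay above both MHH-CALL4 groups. CD22 fell by 0.35 in MUTZ-5 (SE 0.067, adjusted p = 0.0020), or 1.27-fold, and by 0.52 in MHH-CALL4 (SE 0.067, adjusted p = 6.4e-05), or 1.43-fold. Between the lines the effects differed by 0.17 (95% confidence interval -0.031 to 0.38, adjusted p = 0.585). With DMSO, CD22 was 1.54-fold higher in MUTZ-5 than in MHH-CALL4 (adjusted p = 8.7e-06). A second cluster annotated to CD22, with a mean level of 10.5 against 12.5 for the one used, fell by 0.42 in MUTZ-5 and by 0.61 in MHH-CALL4 (adjusted p over all 22011 core clusters = 0.0013 in MUTZ-5 and 8.7e-05 in MHH-CALL4).

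**Figure D2:**
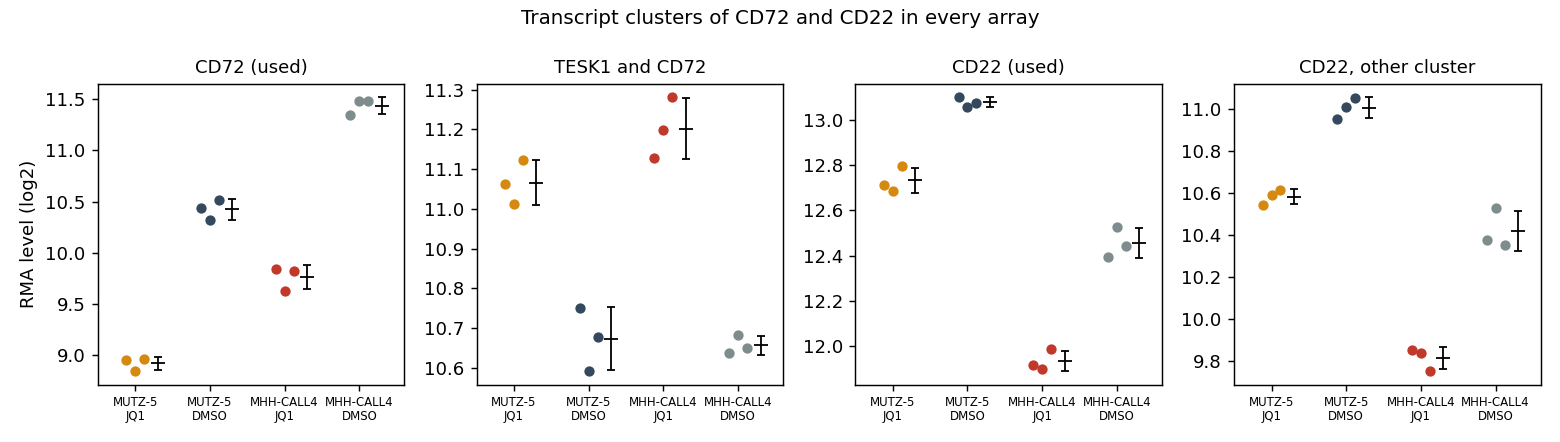
Log2 RMA level (vertical axis, a scale of its own in each panel) of 4 transcript clusters in the 12 arrays, with 3 arrays per group as points and the mean with its SD as a bar. Both CD22 clusters are lower with JQ1, the CD72 cluster used is lower with JQ1, and the cluster annotated to TESK1 and CD72 is higher with JQ1, at 11.01 to 11.12 in MUTZ-5 and 11.13 to 11.28 in MHH-CALL4.

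CD34, a sialomucin of stem and progenitor cells, was higher in MUTZ-5 than in MHH-CALL4 in both conditions and fell with JQ1 in MUTZ-5. MUTZ-5 cells had 9.76, 9.65 and 9.59 with JQ1, against 10.52, 10.41 and 10.93 with DMSO, and the groups did not overlap. MHH-CALL4 cells had 6.89, 6.96 and 7.07 with JQ1, against 6.77, 6.90 and 7.14 with DMSO, and the groups overlapped. The MHH-CALL4 levels are low on the scale of these arrays: with DMSO, 25.3% of all genes lay at or below the CD34 mean, and the myeloid marker CD14 lay at 7.81. Whether a fall could be measured from such a level was not tested. CD34 fell by 0.95 in MUTZ-5 (SE 0.13, adjusted p = 1.2e-04), or 1.94-fold. In MHH-CALL4 the difference was 0.041 (95% confidence interval -0.23 to 0.32, adjusted p = 0.850). The difference between the effects was -0.99 (SE 0.18, 95% confidence interval -1.38 to -0.61, adjusted p = 0.0115) and was called in each of the 12 fits that left out 1 array. CD34 was higher in MUTZ-5 than in MHH-CALL4, with a difference in log2 level of 3.69 with DMSO (adjusted p = 8.6e-11) and 2.69 with JQ1 (adjusted p = 2.5e-09). No exact fold is given, because the MHH-CALL4 level was not shown to lie above background.

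**Figure D3:**
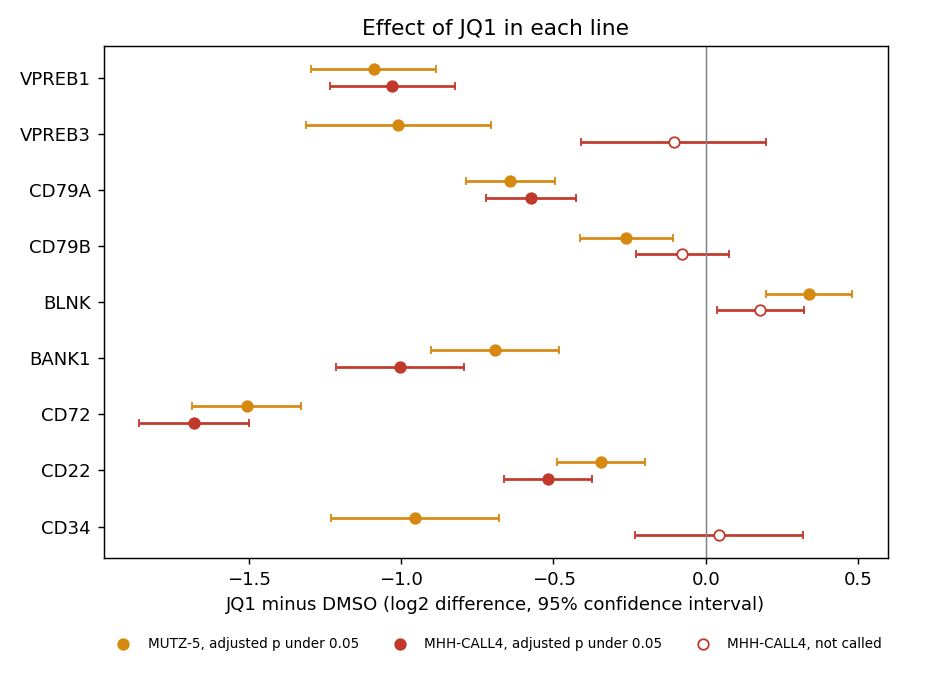
JQ1 minus DMSO (horizontal axis, log2 difference) for each of the 9 genes in MUTZ-5 (upper point of each pair) and MHH-CALL4 (lower point), with 95% confidence intervals as bars; filled points have an adjusted p under 0.05. CD72 lies farthest to the left in both lines, at -1.51 in MUTZ-5 and -1.68 in MHH-CALL4, and BLNK lies to the right of 0.

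The test of the difference between the lines' JQ1 effects called 2 of the 9 genes, VPREB3 and CD34, both with a fall in MUTZ-5 and no called change in MHH-CALL4 (the VPREB3 call being lost in most fits without 1 array), against 0.583% of all genes called in that direction and 1.53% in either. For the 7 others the interval of the difference lay within -0.40 and 0.61. These intervals do not show that the lines respond alike. For CD34 the level in MHH-CALL4 was low on the scale, so the test compares a fall in MUTZ-5 with a line in which a fall may not be measurable. The 2 genes called here are also the 2 that differed most between the lines with DMSO, VPREB3 being lower and CD34 higher in MUTZ-5.

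**Figure D4:**
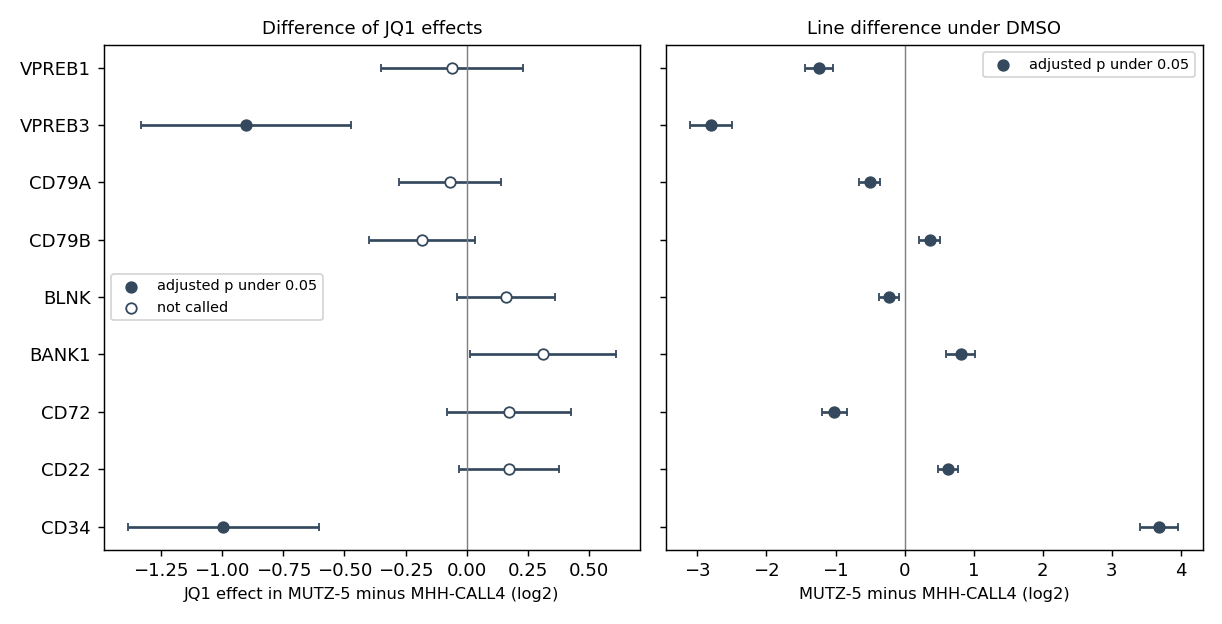
Differences in log2 units for each of the 9 genes with 95% confidence intervals: the JQ1 effect in MUTZ-5 minus that in MHH-CALL4 (left panel) and the level in MUTZ-5 minus that in MHH-CALL4 with DMSO (right panel). In the left panel VPREB3 at -0.90 and CD34 at -0.99 are filled (adjusted p under 0.05), and in the right panel all 9 are.

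With DMSO, all 9 genes differed between the lines, 5 lower in MUTZ-5 (VPREB1, VPREB3, CD79A, BLNK and CD72) and 4 higher (CD79B, BANK1, CD22 and CD34), where 23.4% of all genes were called, 11.5% lower and 11.9% higher. With JQ1, 4 were called lower and 3 higher in MUTZ-5, against 19.9% of all genes (8.25% lower and 11.7% higher), and CD79B (difference 0.18, adjusted p = 0.106) and BLNK were not. VPREB1, VPREB3, CD79A and CD72 were lower in MUTZ-5 in both conditions, CD72 with a difference of -1.02 with DMSO (2.02-fold) and -0.84 with JQ1. BANK1, CD22 and CD34 were higher in MUTZ-5 in both conditions. The line took the larger share of the sum of squares for VPREB1, VPREB3, CD79B, BANK1, CD22 and CD34 (54.5% to 95%), and JQ1 the larger share for CD79A (55.1%), BLNK (67%) and CD72 (73.9%).

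Genes whose pattern over the 12 arrays was most like that of a member were found for the 5 members with an SD of at least 0.5, as those with the smallest root mean square difference after centring each gene on its own mean. For CD72 they were LINC02363 (0.1 log2 units) and NIPAL2 (0.128). For VPREB1 they were SLC7A5 (0.134), an amino acid transporter, and TRIM14 (0.138). For BANK1 they were SLC9B2 (0.118) and CD200 (0.125), a surface glycoprotein of B cells. VPREB3 had no neighbour as close, with CYTL1 at 0.269 and SMAGP at 0.36. The JQ1 effects in MHH-CALL4 were -0.62 for CYTL1 and -0.51 for SMAGP, against -0.11 for VPREB3. The line differences with DMSO were -3.17 for CYTL1 and -2.75 for SMAGP, against -2.80 for VPREB3. CD34 had ITGA6 at 0.214, an integrin chain, and B4GALT5 at 0.225. Among the 9 genes themselves, CD79B and CD22 (0.278) and BANK1 and CD22 (0.279) were the closest pairs, VPREB1 lay at 0.33 from CD72 and at 1.05 from VPREB3, and VPREB3 and CD34 were the farthest apart (3.23). No SD limit was set for these pairs, and the measure is not scaled, so genes that vary little lie close. CD79B and BLNK lay at 0.315, with JQ1 effects in MUTZ-5 of -0.26 for CD79B and 0.34 for BLNK. With 12 arrays that share lines and treatments, such likeness describes the groups rather than single arrays.

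The wider receptor pathway was read from a list of 36 other receptor, kinase and signalling genes, of which 30 were measured. JQ1 lowered 10 and raised 2 of these in MUTZ-5, where 13% of all genes were called lower and 9.06% higher. It lowered 10 and raised 2 in MHH-CALL4, where 17.5% of all genes were called lower and 11% higher. Lower in both lines were 8, against 10.6% of all genes. Median effects were -0.08 in MUTZ-5 and -0.04 in MHH-CALL4. PTPN6, the phosphatase that CD72 and CD22 recruit, fell by 1.16 in MUTZ-5 (adjusted p = 7.6e-08) and by 1.49 in MHH-CALL4 (adjusted p = 6.5e-09). Its level was 9.73, 9.65 and 9.73 with JQ1 in MUTZ-5, against 10.88, 10.81 and 10.91 with DMSO, and 8.80, 8.74 and 8.83 with JQ1 in MHH-CALL4, against 10.28, 10.31 and 10.26 with DMSO. CD72 and PTPN6 thus both had JQ1 arrays well below the DMSO arrays of their line. LAT2, an adaptor related to LAT, fell by 1.31 in MUTZ-5 and by 1.12 in MHH-CALL4, and GAB2, a docking protein, by 0.71 in MUTZ-5 and by 0.85 in MHH-CALL4. FYN, a kinase of the SRC family, rose by 0.64 in MUTZ-5 (adjusted p = 4.4e-04) and by 0.80 in MHH-CALL4 (adjusted p = 5.8e-05). SYK and BTK, named after their values were seen, fell in both lines. SYK fell by 0.55 in MUTZ-5 (adjusted p = 0.0010) and by 0.84 in MHH-CALL4 (adjusted p = 2.8e-05). BTK fell by 0.70 in MUTZ-5 (adjusted p = 4.7e-05) and by 0.64 in MHH-CALL4 (adjusted p = 7.2e-05). Not all genes of the pathway fell in both lines. The PLCG2 mean was 10.83 with JQ1 against 10.70 with DMSO in MHH-CALL4, and 11.73 against 11.90 in MUTZ-5. In MUTZ-5 its JQ1 arrays (11.74, 11.72 and 11.74) lay below its DMSO arrays (11.89, 11.84 and 11.98). The LYN mean was 11.24 with JQ1 against 11.21 with DMSO in MHH-CALL4, and 6.61 against 6.46 in MUTZ-5. The MUTZ-5 level of LYN was low on the scale, with 18.11% of all genes at or below its DMSO mean. Whether a fall could be measured from there was not tested. Members of the list such as IGLL1 and IGHM were not analysed here.

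Of 34 other B cell surface genes, 30 were measured. JQ1 lowered 11 and raised none in MUTZ-5, against 13% of all genes called lower and 9.06% higher. It lowered 11 and raised 1 in MHH-CALL4, against 17.5% of all genes lower and 11% higher. Lower in both lines were 8, against 10.6% of all genes. Median effects were -0.09 in MUTZ-5 and -0.08 in MHH-CALL4. CD48, a ligand of CD244, fell by 0.75 in MUTZ-5 and by 1.21 in MHH-CALL4. CD58, the ligand of CD2, fell by 0.68 in MUTZ-5 and by 0.81 in MHH-CALL4. CD200 fell by 0.40 in MUTZ-5 (adjusted p = 0.0158) and by 0.99 in MHH-CALL4. TNFRSF17, a receptor of mature and antibody-secreting B cells, fell by 1.53 in MUTZ-5 and by 0.48 in MHH-CALL4 (adjusted p = 0.0393), at levels low on the scale.

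Of 20 other progenitor and precursor B cell genes, 19 were measured. In MUTZ-5 JQ1 lowered 7 and raised 2, against 13% of all genes called lower and 9.06% higher. In MHH-CALL4 it lowered 8 and raised 1, against 17.5% of all genes lower and 11% higher. Lower in both lines were 5, against 10.6% of all genes. Median effects were -0.03 in MUTZ-5 and -0.19 in MHH-CALL4. IL7R, a receptor chain needed by early B cells, fell by 2.19 in MUTZ-5 and fell by 1.96 in MHH-CALL4. ERAP1, an aminopeptidase, fell by 0.83 in MUTZ-5 and by 0.72 in MHH-CALL4, and ERG, a factor of the ETS family, by 0.52 in MUTZ-5 and by 1.36 in MHH-CALL4. PROM1, which like CD34 marks progenitors, differed by -0.01 in MUTZ-5 (adjusted p = 0.953) and fell by 1.52 in MHH-CALL4 (adjusted p = 6.9e-08), at levels low on the scale. DNTT and PAX5, named after their values were seen, did not pass the test in either line. The difference was 0.03 for DNTT and 0.07 for PAX5 in MUTZ-5, and 0.05 for DNTT and -0.03 for PAX5 in MHH-CALL4. They do not stand for other B lineage factors: EBF1 fell by 0.45 in MHH-CALL4 (limma adjusted p = 5.3e-04). The TCF3 mean there was 11.369 with JQ1 against 11.895 with DMSO.

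Of 24 B lineage transcription factors, 22 were measured. In MUTZ-5, 7 were lower and 2 higher, against 13% of all genes lower and 9.06% higher. In MHH-CALL4, 13 were lower and 2 higher, against 17.5% of all genes lower and 11% higher. Lower in both lines were 7, against 10.6% of all genes. Median effects were -0.17 in MUTZ-5 and -0.38 in MHH-CALL4. IKZF3, the factor Aiolos, fell by 1.01 in MUTZ-5 and by 1.08 in MHH-CALL4, and TCF12, which binds E boxes, by 0.51 in MUTZ-5 and by 0.81 in MHH-CALL4. SPI1 (PU.1) fell by 0.77 in MUTZ-5 and by 0.51 in MHH-CALL4, and BCL11A by 0.73 in MUTZ-5 and by 0.34 in MHH-CALL4. The lists were chosen with earlier results of these data known, and their counts describe them.

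**Figure D5:**
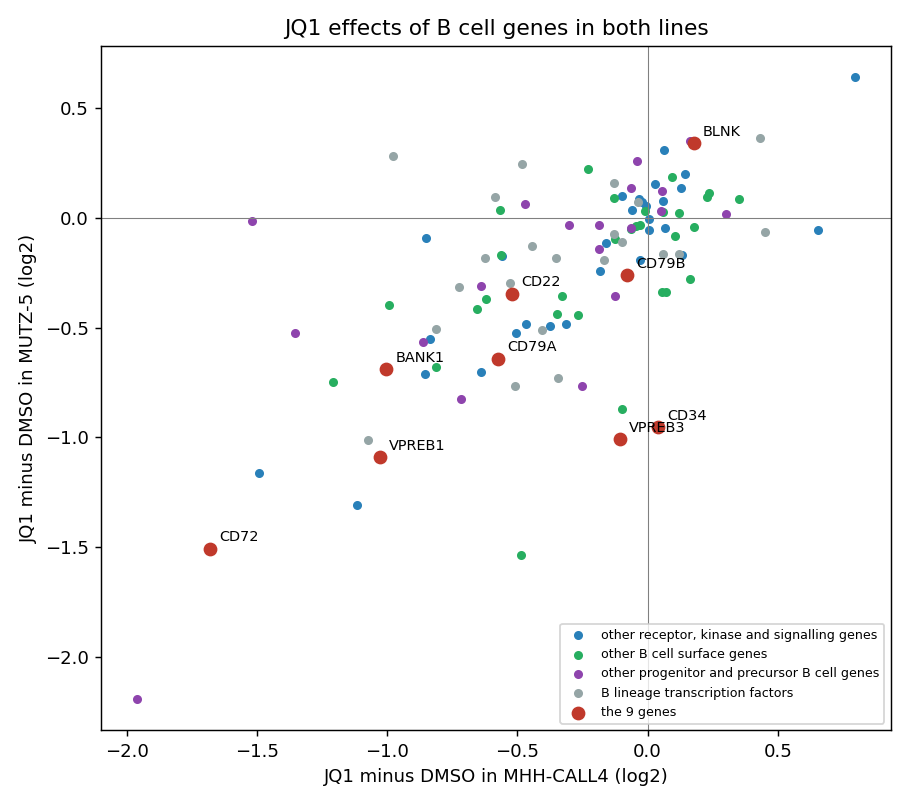
JQ1 minus DMSO in MUTZ-5 (vertical axis, log2) against that in MHH-CALL4 (horizontal axis, log2), 1 point per gene, with the 9 genes large and named and 4 other gene lists in colour. VPREB3 and CD34 lie low near the vertical line at 0 (-1.01 and -0.95 in MUTZ-5), while CD72 lies low in both lines.

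Most markers of other cell types did not pass the test, and neither did most genes. Of all 14232 genes, 11094 were not called in MUTZ-5 and 10175 in MHH-CALL4. Called lower were 13% of all genes in MUTZ-5 and 17.5% in MHH-CALL4, and called higher 9.06% in MUTZ-5 and 11% in MHH-CALL4. The summed level of 12 T and NK cell markers was 80.8 to 81.6 in MUTZ-5 with JQ1, 79.7 to 82.8 in MUTZ-5 with DMSO, 79.5 to 82.9 in MHH-CALL4 with JQ1 and 81.1 to 81.8 in MHH-CALL4 with DMSO, with 1 of 12 (NKG7) called lower in each line. Of 12 myeloid markers 9 were measured, with summed levels of 66.1 to 67.1 in MUTZ-5 with JQ1, 65.7 to 67.1 in MUTZ-5 with DMSO, 66.6 to 67.9 in MHH-CALL4 with JQ1 and 69.2 to 70.2 in MHH-CALL4 with DMSO. The myeloid sum was thus lower with JQ1 in MHH-CALL4, where 2 of 9 markers (MPO and LYZ) were called lower and 1 higher, and its part in the results was not tested. Erythroid and megakaryocyte markers (6 of 8 measured) summed to 47.2 to 49.3 over the 12 arrays, with 1 of 6, TAL1, called higher in MHH-CALL4 (difference 0.34) and none called in MUTZ-5. The 8 stromal and endothelial markers summed to 57.1 to 58.7, with 1 of 8, PDGFRB, called lower in both lines, by -0.66 in MUTZ-5 and -0.85 in MHH-CALL4. The part of these markers in the results was not tested.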

How the data were processed

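RNA of 12 samples (3 in each of 4 groups) was measured on Affymetrix arrays. The deposited values are log2 values that the authors made by RMA in Affymetrix Expression Console, per the submitters' processing notes; the version, the genome build and the arrays normalized together are not given in the sources used here. Each array was deposited in 2 forms, over core and over extended probe sets. Both come from 1 scan and count as 1 replicate, and the core form is the one used.

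Of 22011 core clusters, 14432 carry 1 symbol, 2408 several and 5171 none in the array annotation. For the 197 genes with several 1-symbol clusters the one with the highest mean was kept, leaving 14232 genes, of which 14205 matched RefSeq. No low values were removed. Group means were fitted by lmFit and eBayes of limma 3.58.1 under R 4.3.3, and tests were two-sided and adjusted by Benjamini-Hochberg over all genes. The fit was also run on simulated data with known changes and independent noise. That run is a check of the code and says nothing about the spread in these arrays. The number of arrays limits the precision, and signal over background is not known.

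The 9 genes and the gene lists were chosen with earlier results of these data known. From each of 4 lists (receptor and signalling, surface, precursor, and transcription factor genes) up to 4 called genes were named, those with the largest absolute JQ1 effect averaged over the lines whose JQ1 and DMSO arrays did not overlap in at least 1 line, with MYC and HEXIM1 as reference responses, and the 2 genes most like each member with an SD of at least 0.5 among genes reaching the median level of 8.52. The alternatives tried were extended probe sets, median centring, cyclic loess, genes at or above the median, all core clusters, a trended robust variance, each line fitted alone, a replicate block and leaving out each array.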

Additional observations from a re-analysis of the deposited data

Results flagged for a closer look

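For 11 of the genes named, the test of the difference itself found that the JQ1 effect differed between the lines (MUTZ-5 effect minus MHH-CALL4 effect, limma adjusted p under 0.05 over all genes). Of all 14232 genes, 1.53% were called in that test. TNFRSF17, ERG and PROM1 were named for the size of their JQ1 effect in these data, so the 11 are not a sample to set against that share. Among the 9 genes these were VPREB3 (-0.90, adjusted p = 0.0397, with effects of -1.01 in MUTZ-5 and -0.11 in MHH-CALL4) and CD34 (-0.99, adjusted p = 0.0115, with effects of -0.95 in MUTZ-5 and 0.041 in MHH-CALL4). ITGA6 and SLC7A5 were picked for a 12-array pattern like that of CD34 and of VPREB1, JQ1 effects and line differences included, so their values are no independent evidence. ITGA6 fell by more in MUTZ-5 (-0.76, adjusted p = 0.0266, with effects of -0.98 in MUTZ-5 and -0.22 in MHH-CALL4), and so did SLC7A5 (-0.46, adjusted p = 0.0402, with effects of -1.35 in MUTZ-5 and -0.90 in MHH-CALL4). TNFRSF17 also fell by more in MUTZ-5 (-1.05, adjusted p = 0.0377). Its mean in MHH-CALL4 with DMSO was 5.76, low on the scale. MYC (0.73, adjusted p = 0.0011), ERG (0.83, adjusted p = 3.4e-04) and PROM1 (1.51, adjusted p = 2.9e-05) fell by more in MHH-CALL4. The PROM1 mean in MUTZ-5 with DMSO was 5.26, low on the scale. The effect was also lower in MHH-CALL4 for IKZF1 (1.26, adjusted p = 4.5e-05), MPO (1.99, adjusted p = 6.2e-06) and LYZ (1.03, adjusted p = 0.0032, at levels low on the scale), all 3 named after their values were seen. CD34 in MHH-CALL4 was low on the scale too. From such levels a fall may not be measurable, and the part of this in these differences was not tested. No group had more than 3 arrays, so single arrays were not tested as outliers.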

How the results depend on the processing

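For the 9 genes, 45 differences were recomputed under the alternatives, giving 644 values, of which 615 kept their direction and side of the threshold, 18 lost the call, 7 gained it and 4 changed sign without having been called. With all core clusters tested, or with a replicate block, 1 of the 9 genes was called for the difference of JQ1 effects in place of 2, VPREB3 missing the threshold (adjusted p = 0.0975 with all clusters and 0.0782 with the block), and the block left 136 of all genes called in place of 218. Same-numbered JQ1 and DMSO arrays correlated at -0.174, -0.213 and -0.436 in MUTZ-5 and at 0.299, 0.0703 and 0.229 in MHH-CALL4. Arrays with different numbers correlated at -0.318 to 0.39 in MUTZ-5 and at -0.304 to 0.0999 in MHH-CALL4. In MHH-CALL4, 1 of 3 same-numbered pairs lay below 0.1, and the numbers were not taken as pairs in either line. Whether the MHH-CALL4 arrays were paired is not settled by these values. The block gave 9 members and 2598 genes called in MUTZ-5, and 5 members and 3415 genes in MHH-CALL4, and changed no other member's call. Leaving out each array gave 1 to 2 members and 157 to 360 genes for that difference, the most without MUTZ-5 DMSO replicate 3, 8 to 9 members in MUTZ-5 and 5 to 6 in MHH-CALL4. The CD34 effect in MHH-CALL4 was -0.041 without MHH-CALL4 DMSO replicate 1 and -0.0075 without MHH-CALL4 JQ1 replicate 3 (range -0.041 to 0.14), and the VPREB1 difference of effects was 0.015 without MHH-CALL4 DMSO replicate 1 and 0.017 without MUTZ-5 DMSO replicate 3 (range -0.13 to 0.017). The line difference of CD72 with JQ1 was -0.53 over extended probe sets in place of -0.84. CD79B was called between lines with JQ1 under the trended robust variance (adjusted p = 0.0352). The causes were not tested.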

Other observations

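IKZF1, the factor Ikaros, was chosen after its values were seen. It rose by 0.28 in MUTZ-5 (adjusted p = 0.0213) and fell by 0.98 in MHH-CALL4 (adjusted p = 1.1e-06), and the difference of the effects was 1.26 (adjusted p = 4.5e-05). IKZF3 fell in both lines. Among the markers of myeloid cells, MPO, also chosen after its values were seen, fell by 0.48 in MUTZ-5 and by 2.47 in MHH-CALL4, and LYZ fell by 0.83 in MHH-CALL4.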
